A study of Rattus norvegicus with 6 samples.

Results

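The genes described here encode the enzymes that place and remove methyl groups on DNA and acetyl or methyl groups on histones, together with the partners that guide them. They were taken by name from the deposited table as all Hdac, Sirt, Kdm, Kmt2, Dnmt and Tet genes plus Uhrf1, Uhrf2, Ezh1, Ezh2, Eed, Suz12, Hells and Setdb1, which gave 54 of the 32883 genes. Of these, 51 had enough reads to be tested, and Dnmt3l, Hdac6 and Kdm4d did not. RNA came from oligodendrocyte precursor cells (OPCs), which divide and can mature into myelin-forming oligodendrocytes. The OPCs were cultured from the cerebral cortices of newborn Sprague Dawley rats, 2 animals per culture. They were shaken off a mixed glial layer and kept in Neurobasal with B27 and N2. Cells of the ZJU-37 group received 5 μM ZJU-37, an inhibitor of the kinase RIPK1 derived from Nec-1s, and cells of the DMSO group the same volume of the solvent. The labels give a treatment of 36 h, whereas the study's methods give a shorter one. There were 3 libraries per group, described as biological repeats in the methods and as plate wells in a legend, so the p-values measure only the spread between these libraries.

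DNA methylation is copied after each round of replication by DNMT1, which UHRF1 brings to freshly replicated DNA, whereas DNMT3A and DNMT3B methylate new sites and the TET enzymes oxidise methylcytosine towards its removal. On histones, the Polycomb complex PRC2, built of EZH1 or EZH2 with EED and SUZ12, writes a repressive methyl mark, the KDM enzymes take methyl groups off, and the HDACs and sirtuins take off acetyl groups. In the oligodendrocyte lineage, deacetylases and Polycomb are known as regulators of the passage from precursor to myelinating cell.

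The libraries held between 13935865 and 24097927 counts. A count of 3 in a library equals 0.124 to 0.215 CPM (counts scaled to a common library total), a limit for counting error only. CPM below is scaled by the TMM factors, and 3 values of a group stand in the order of its replicates 1, 2 and 3. The 8 OPC markers summed to 4041 to 4674 CPM in DMSO and to 4465 to 6144 CPM in ZJU-37, and 4 of them were called higher and 3 lower. Transcripts of other cells were present as well. The 8 oligodendrocyte markers summed to 11087 to 22050 CPM in DMSO and to 4666 to 9761 CPM in ZJU-37, so that the groups did not overlap. The corresponding ranges were 1797 to 3105 and 1303 to 2694 CPM for 8 microglia markers, 1026 to 1655 and 904 to 1358 CPM for 8 astrocyte markers, and 758 to 1002 and 665 to 904 CPM for 8 neuron markers, none of which was at 0 in all libraries. The 10 markers of dividing cells summed to 912 to 981 CPM in DMSO and to 2042 to 2458 CPM in ZJU-37. In bulk RNA, fewer cells of a type and less RNA per cell cannot be told apart.

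With ZJU-37, Dnmt1 and Uhrf1, which maintain DNA methylation, the PRC2 genes Ezh2, Suz12 and Eed, and the demethylase genes Kdm2b and Kdm1a rose. The deacetylase genes Sirt2 and Hdac11, the demethylase genes Kdm6b, Kdm4b, Kdm5b and Kdm4a, and the DNA methyltransferase gene Dnmt3a fell. In edgeR's quasi-likelihood test, 7 of the 51 tested members passed an adjusted p-value of 0.05 in the upward direction and 7 in the downward direction. When 1 library was left out, these counts ran from 3 to 7 and from 4 to 6. The calls on Dnmt3a, Eed, Suz12, Kdm1a, Kdm2b, Kdm4a and Kdm5b were lost in at least 1 such fit. Over all 14670 tested genes, 9.43% were called higher and 5.58% lower. With the replicate number as a block, all 14 calls stayed and 10 members were called higher and 14 lower, against 16.2% and 15.9% of all genes. The median log2 fold change of the tested members was -0.08, against -0.03 over all tested genes, and 68.6% of the members (35 of 51) lay below 0, against 54.0% of all tested genes. The share of tested members called was 27.5%, against 15.0% of all tested genes, and the calls went in both directions.

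**Figure D1:**
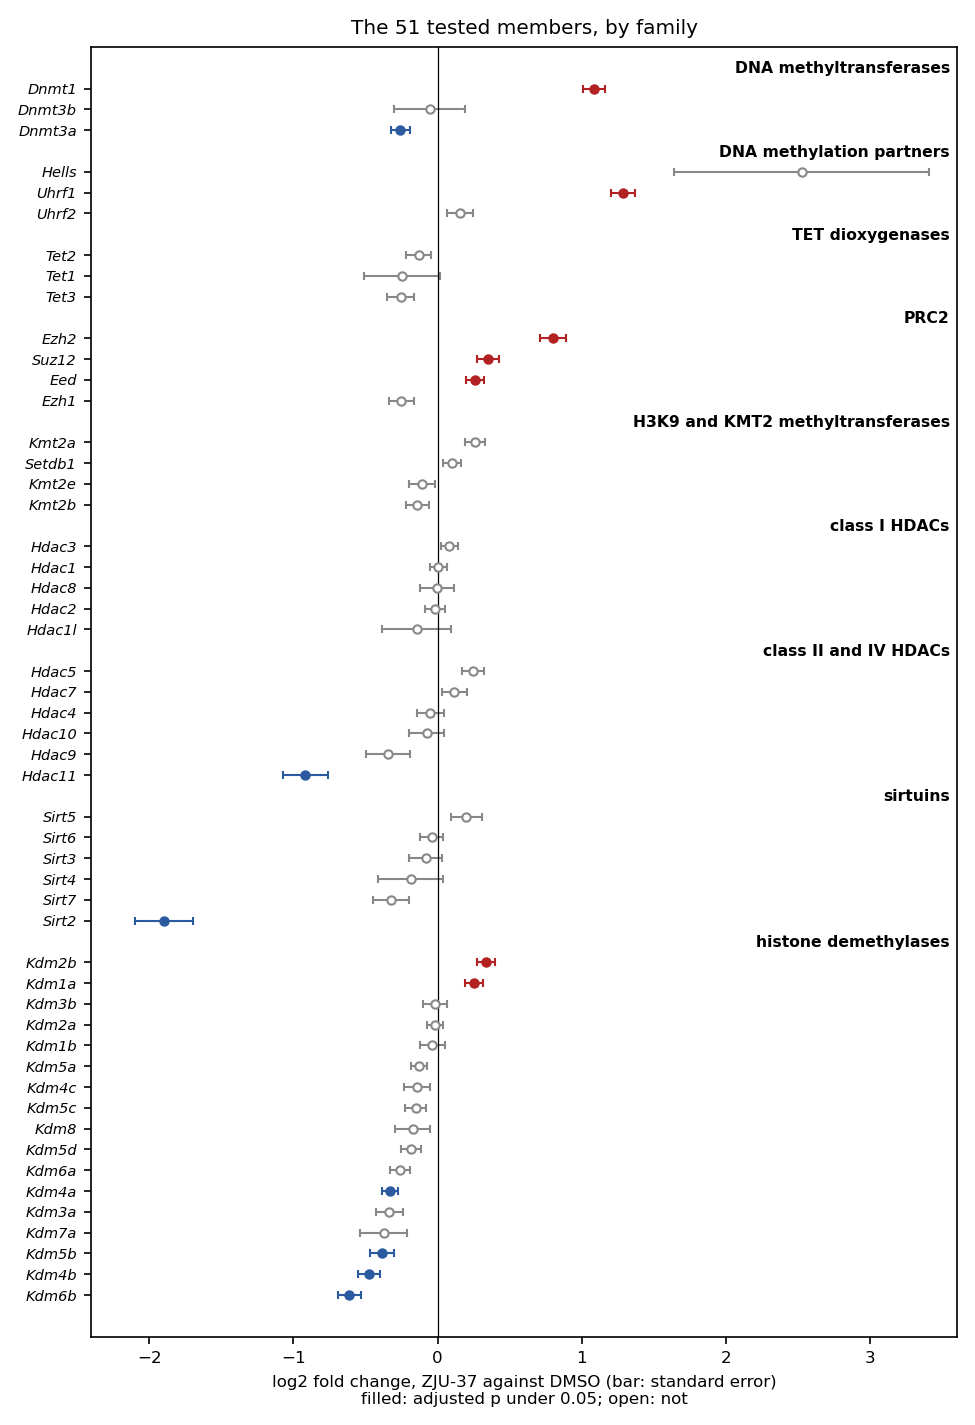
Log2 fold change of ZJU-37 against DMSO for the 51 tested members, grouped by family, with bars for the standard error; filled points passed an adjusted p-value of 0.05 in edgeR. Dnmt1, Uhrf1 and Ezh2 stand to the right, Sirt2 and Hdac11 to the left, and the class I HDACs lie near 0.

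The promoters of the members that rose are shown first, since several of them held at least 1 of 4 related short words. In the RefSeq table of promoter windows (build GRCr8, 250 bases before to 50 bases after a transcript start), 46 of the 54 members had a window. The windows were searched on both strands for 4 words of the type bound by E2F factors, which drive genes of the DNA synthesis phase: TTTCCCGC, TTTGCCGC, TTTCGCGC and TTTGGCGC. The word TTTCGCGC and its reverse complement can overlap each other. At least 1 word was found in 716 of 33469 windows, a share of 2.14%, and in 4.09% of the tested genes that had a window. Of the 7 members called higher, 5 had a word (Dnmt1, Uhrf1, Ezh2, Suz12 and Kdm1a), of the 6 called lower with a window 0 had it, and of the 30 with a window that were not called 2 had it (Hells and Sirt5). Among all genes with a window the shares were 9.29% of those called higher and 3.19% of those called lower. These words were chosen after the members' values had been seen, and a match is a description of the window, not a binding site. Sirt5 (log2 fold change 0.20, not called) held TTTGCCGC in the stretch chr17:21543140-21543169, minus strand, which is not printed below. The stretches of 30 bases around the words are given on the strand of the gene, with the word or its reverse complement in capitals, for Dnmt1 (chr8:27762798-27762827, minus strand), Uhrf1 (chr9:1222982-1223011 and chr9:1223076-1223105, plus strand), Ezh2 (chr4:77687156-77687185, minus strand), Suz12 (chr10:65464759-65464788, plus strand), Kdm1a (chr5:154121726-154121755, minus strand) and Hells (chr1:246114089-246114118, plus strand).
Dnmt1: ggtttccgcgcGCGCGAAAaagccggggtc
Uhrf1, first word: ccgctaagttcGCGGGAAActcgcgcggtc
Uhrf1, second word: cccgagtcgggTTTCGCGCgccctggcgtc
Ezh2: gggctgctgcgTTTGGCGCtcggtccggtc
Suz12: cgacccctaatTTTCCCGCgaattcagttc
Kdm1a: gcggaggtgctcggTTTCGCGCggaccgtg
Hells: gatgaccaggtTTTCCCGCgaaagagaagc

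The words of Uhrf1, Suz12 and Hells lay before the transcript start, starting 193 and 99, 199 and 29 bases upstream of it, and those of Dnmt1, Ezh2 and Kdm1a began at bases 26, 10 and 35 of the transcript. The deposited data place Uhrf1 on the minus strand of chromosome 9 between bases 10738222 and 10757954. Its window printed below is on the plus strand in build GRCr8, and this difference was not resolved. Uhrf1 had 3 windows in the table, of which 1 held both words. The 250 bases before that start (chr9:1222936-1223185, plus strand) are printed because this gene had the largest called rise, and those of Suz12 (chr10:65464719-65464968, plus strand) for comparison.
Uhrf1: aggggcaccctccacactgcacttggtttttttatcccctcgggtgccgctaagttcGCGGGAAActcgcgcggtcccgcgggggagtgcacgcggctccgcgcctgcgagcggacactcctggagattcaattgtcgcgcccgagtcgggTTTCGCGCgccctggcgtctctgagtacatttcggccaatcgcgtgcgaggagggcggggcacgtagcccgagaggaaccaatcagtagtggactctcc
Suz12: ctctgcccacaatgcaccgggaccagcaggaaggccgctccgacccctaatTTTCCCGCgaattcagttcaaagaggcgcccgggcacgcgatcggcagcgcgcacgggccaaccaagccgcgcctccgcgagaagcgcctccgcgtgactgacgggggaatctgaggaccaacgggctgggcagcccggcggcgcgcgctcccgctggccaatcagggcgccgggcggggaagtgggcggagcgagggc

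Dnmt1, the maintenance methyltransferase, had 175, 168 and 162 CPM in DMSO and 386, 335 and 347 CPM in ZJU-37. Every ZJU-37 library was above every DMSO library. The log2 fold change was 1.08 with a standard error of 0.08 (edgeR adjusted p = 0.000399). The deposited table, whose build is not named, places Dnmt1 on the minus strand of chromosome 8 between bases 21922515 and 21968495. Dnmt3a, a methyltransferase for new sites, moved the other way, from 87.9, 94.4 and 92.7 CPM to 72.5, 81.3 and 76.1 CPM, a log2 fold change of -0.26 (standard error 0.07, edgeR adjusted p = 0.0433). The groups did not overlap, but the call on Dnmt3a was lost in each of the 6 fits that left out 1 library, with adjusted p-values from 0.0648 to 0.178. Dnmt3b, the related methyltransferase, was near the lower end of the measured levels, with 3.65, 4.29 and 2.55 CPM in DMSO and 2.87, 3.35 and 3.84 CPM in ZJU-37, and was not called (edgeR adjusted p = 0.911). Dnmt3l had 2 counts in ZJU-37 replicate 1 and 0 in the other libraries. By FPKM, which is per gene length, Dnmt1 made up 54.9% to 57.8% of the summed level of the 4 Dnmt genes in the DMSO libraries and 73.9% to 78.5% in the ZJU-37 libraries.

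Uhrf1, which reads half-methylated DNA and recruits DNMT1, showed the largest called rise of all members. It had 83.5, 82.1 and 76.6 CPM in DMSO and 217, 183 and 191 CPM in ZJU-37, a log2 fold change of 1.29 with a standard error of 0.08 (edgeR adjusted p = 0.000327). The groups lay far apart, and the log2 fold change stayed between 1.23 and 1.37 when 1 library was left out. Its paralog Uhrf2 had 80.1, 79.0 and 82.9 CPM in DMSO and 102, 85.5 and 82.1 CPM in ZJU-37, which overlapped, and was not called (log2 fold change 0.15, standard error 0.09, edgeR adjusted p = 0.326). Hells encodes a helicase of the SNF2 type that DNA methylation needs at repeats. It had 8, 27 and 9 counts in DMSO and 165, 17 and 130 counts in ZJU-37, so that ZJU-37 replicate 2 fell among the DMSO libraries. The log2 fold change of Hells was 2.52 with a standard error of 0.89 and was not called (edgeR adjusted p = 0.117), although it was called by DESeq2 (adjusted p = 0.00811) and by edgeR without ZJU-37 replicate 2 (log2 fold change 3.05, adjusted p = 0.02). The table also holds LOC100911660, described as a gene like Hells, whose span overlaps that of Hells and which had 19, 27 and 26 counts in DMSO and 30, 16 and 5 in ZJU-37, so the counts of both are uncertain.

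The TET genes, which encode the dioxygenases that act on methylcytosine, gave 0 calls among 3 tested members, against 15.0% of all tested genes. All 3 had log2 fold changes below 0, as did 54.0% of all tested genes, and 3 members are too few to set the family apart. Tet3 had 73.0, 66.5 and 62.1 CPM in DMSO and 62.3, 52.9 and 53.8 CPM in ZJU-37, where the groups overlapped by ZJU-37 replicate 1. Its log2 fold change was -0.25 with a standard error of 0.09 (edgeR adjusted p = 0.125, and 0.00874 with the replicate block). Tet2 had 51.4, 47.6 and 46.6 CPM in DMSO and 48.9, 43.2 and 40.8 CPM in ZJU-37, with an edgeR adjusted p of 0.39. Tet1 was low, with 9.28, 8.08 and 5.89 CPM in DMSO and 8.81, 5.33 and 5.46 CPM in ZJU-37, with an edgeR adjusted p of 0.608.

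Of the 4 PRC2 members, 3 were called higher, against 9.43% of all tested genes. Ezh2, the catalytic subunit of dividing cells, had 65.1, 64.6 and 57.6 CPM in DMSO and 120, 102 and 104 CPM in ZJU-37. The log2 fold change of Ezh2 was 0.80 with a standard error of 0.09 (edgeR adjusted p = 0.0017), and it passed the threshold whichever library was left out. Suz12, a core subunit that holds the complex together, had 35.9, 36.4 and 38.1 CPM in DMSO and 50.9, 45.6 and 44.2 CPM in ZJU-37, a log2 fold change of 0.35 (standard error 0.08, edgeR adjusted p = 0.0243). Eed, the subunit that binds the finished mark, had 29.8, 31.2 and 31.6 CPM in DMSO and 36.7, 37.2 and 37.2 CPM in ZJU-37, a log2 fold change of 0.26 (standard error 0.06, edgeR adjusted p = 0.0345). In all 3 genes the groups did not overlap. The call on Suz12 was lost in 4 of the 6 fits that left out 1 library (DMSO replicates 1, 2 and 3 and ZJU-37 replicate 2, adjusted p 0.0511 to 0.091) and that on Eed in all 6 (adjusted p 0.0566 to 0.108). Ezh1, the catalytic subunit of resting cells, had 34.2, 37.3 and 37.2 CPM in DMSO and 27.5, 31.6 and 32.2 CPM in ZJU-37, which did not overlap, with a log2 fold change of -0.25 (standard error 0.09, edgeR adjusted p = 0.105, and 0.0152 with the block).

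**Figure D2:**
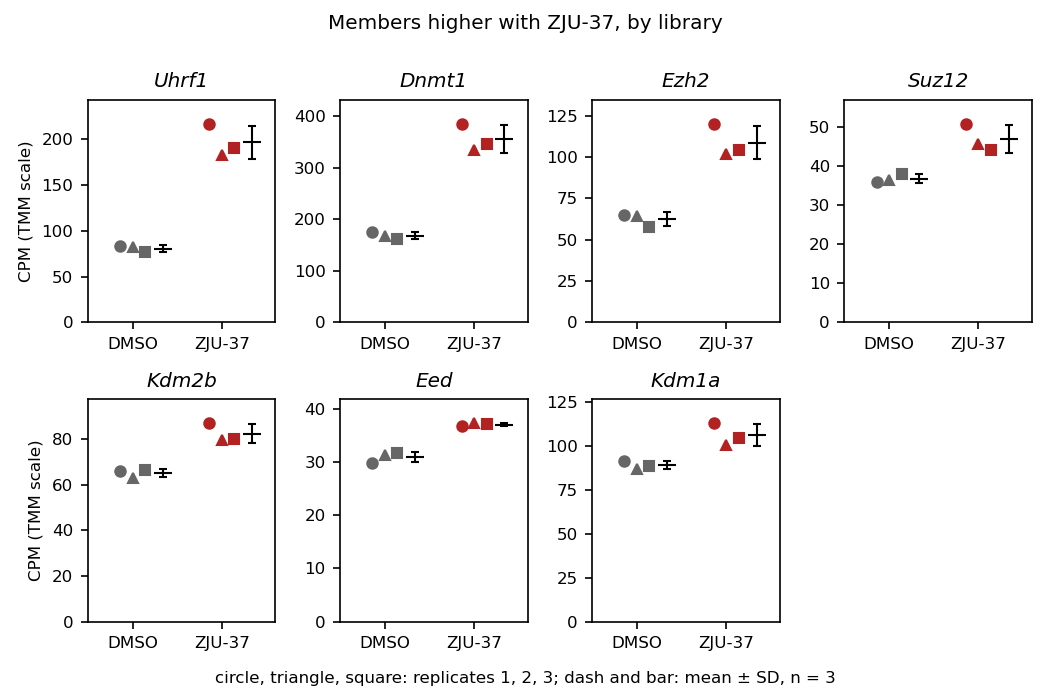
CPM in each library (TMM scale, axes from 0) of the 7 members called higher with ZJU-37; black dashes and bars give the mean and SD of 3 libraries. In each panel the 3 ZJU-37 libraries sit above the 3 DMSO libraries, with the widest gaps for Uhrf1, Dnmt1 and Ezh2.

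The ratio of related members within a library does not depend on its depth. The FPKM ratio of Ezh2 to Ezh1 was 2.89, 2.63 and 2.35 in DMSO and 6.64, 4.88 and 4.91 in ZJU-37, a difference in log2 ratio of 1.05. The FPKM ratio of Uhrf1 to Uhrf2 was 0.967, 0.965 and 0.856 in DMSO and 1.98, 1.98 and 2.16 in ZJU-37, a difference of 1.14. For Dnmt1 to Dnmt3a the FPKM ratio was 1.44, 1.29 and 1.26 in DMSO and 3.86, 2.99 and 3.30 in ZJU-37, a difference of 1.34. For each of these 3 ratios, all ZJU-37 libraries were above all DMSO libraries (exact permutation over libraries, two-sided p = 0.1, which is the lowest value 3 against 3 libraries allow, and 0.1 after adjustment over the 3 ratios). These separations follow from the members' own values given above, so the permutation adds no further evidence.

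**Figure D3:**
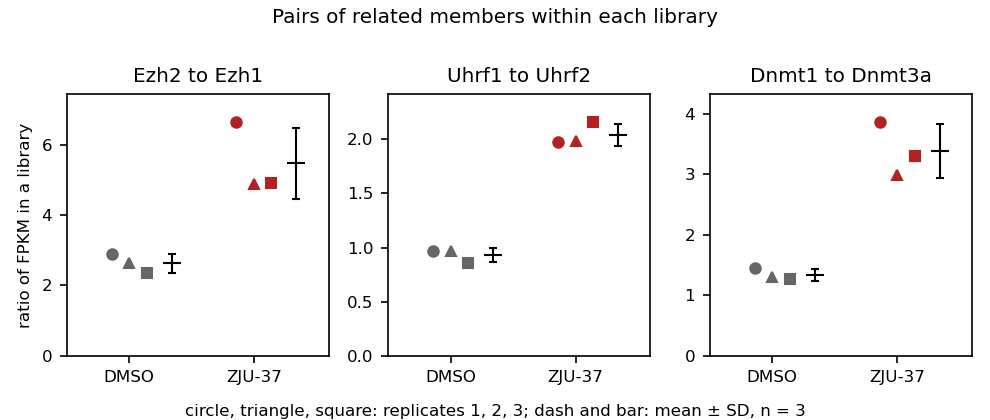
FPKM ratio of Ezh2 to Ezh1, Uhrf1 to Uhrf2 and Dnmt1 to Dnmt3a in each library, with mean and SD of 3 libraries; axes start at 0. Uhrf1 was slightly below Uhrf2 in every DMSO library and at 1.98 to 2.16 times its level in the ZJU-37 libraries.

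Among the other histone methyltransferases of the list, 0 of 4 were called, against 15.0% of all tested genes. Kmt2a, a writer of the methyl mark of active promoters, had 141, 126 and 135 CPM in DMSO and 171, 152 and 159 CPM in ZJU-37, which did not overlap. Its log2 fold change was 0.26 (standard error 0.07, edgeR adjusted p = 0.0564, and 0.00307 with the block). Kmt2b and Kmt2e had log2 fold changes of -0.14 and -0.11, with overlapping groups. Setdb1, a methyltransferase of heterochromatin, had 85.0, 79.2 and 75.6 CPM in DMSO and 84.6, 87.0 and 85.6 CPM in ZJU-37 (edgeR adjusted p = 0.353), and its span overlaps that of Cers2.

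The class I deacetylases, the main nuclear HDACs, had 0 calls among 5 tested members, against 15.0% of all tested genes. Hdac2 had 182, 162 and 162 CPM in DMSO and 175, 164 and 161 CPM in ZJU-37, with a log2 fold change of -0.02 and a 95% interval from -0.22 to 0.18. Hdac1 had 110, 109 and 111 CPM in DMSO and 105, 115 and 111 CPM in ZJU-37, with an interval of the log2 fold change from -0.15 to 0.16. Hdac3, the catalytic subunit of a nuclear corepressor complex, had 54.1, 52.7 and 50.9 CPM in DMSO and 57.2, 55.3 and 54.3 CPM in ZJU-37, with an interval from -0.08 to 0.24. Hdac8 had a log2 fold change of -0.00, and Hdac1l, a low copy related to Hdac1 with reads that may be shared, one of -0.14.

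Of the class II and IV deacetylases, Hdac11, the single class IV enzyme, fell from 44.3, 33.6 and 36.0 CPM in DMSO to 21.0, 22.9 and 16.4 CPM in ZJU-37. The log2 fold change of Hdac11 was -0.92 with a standard error of 0.16 (edgeR adjusted p = 0.0102). The 5 other tested members of these classes were not called, with log2 fold changes from -0.35 for Hdac9 (edgeR adjusted p = 0.193, and 0.0233 with the block) to 0.24 for Hdac5. Hdac5, a class IIa deacetylase that shuttles between nucleus and cytoplasm, was 139, 127 and 126 CPM in DMSO and 149, 167 and 148 CPM in ZJU-37 (edgeR adjusted p = 0.0786, and 0.0153 with the block). Hdac6 had at most 2 counts in a library. A separate row of the table, LOC108348065, is also described as histone deacetylase 6 and had 11.9, 11.5 and 7.54 CPM in DMSO and 11.3, 5.67 and 5.83 CPM in ZJU-37 (edgeR adjusted p = 0.44).

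Sirt2, which encodes a cytoplasmic deacetylase of tubulin that is abundant in oligodendrocytes and myelin, showed the largest fall. It had 2191, 1775 and 1469 CPM in DMSO and 484, 585 and 392 CPM in ZJU-37. The lowest DMSO library was above the highest ZJU-37 library, and the log2 fold change was -1.89 with a standard error of 0.20 (edgeR adjusted p = 0.00162). The same table places Sirt2 on the plus strand of chromosome 1 between bases 86948918 and 86971952. It took 87.2% to 90.8% of the summed FPKM of the 6 sirtuin members in the DMSO libraries and 65.3% to 74.2% in the ZJU-37 libraries. The 5 other sirtuins were not called, with log2 fold changes from -0.32 for Sirt7, a nucleolar enzyme, to 0.20 for Sirt5, a mitochondrial enzyme. With the block, edgeR adjusted p-values were 0.00454 for Sirt7 and 0.0336 for Sirt5. A row described as sirtuin 1, AABR07044925.1, is not among the members by name and had 18.0, 18.4 and 15.1 CPM in DMSO and 16.8, 15.6 and 15.3 CPM in ZJU-37.

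Sirt2 and Hdac11 were lower together with oligodendrocyte markers. Of the 8 markers, Myrf and Cnp were called lower and 0 were called higher. With the block, 5 of the 8 were called lower, as were 4 of 8 astrocyte, 4 of 8 microglia and 3 of 8 neuron markers, and 1 astrocyte marker, S100b, was called higher. Myrf, the transcription factor that starts myelin gene expression, had 884, 768 and 629 CPM in DMSO and 219, 294 and 195 CPM in ZJU-37, a log2 fold change of -1.69 (edgeR adjusted p = 0.00208). Mbp had a log2 fold change of -1.03 and was not called (edgeR adjusted p = 0.136). The part of these markers in the lower Sirt2 and Hdac11 was not tested.

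**Figure D4:**
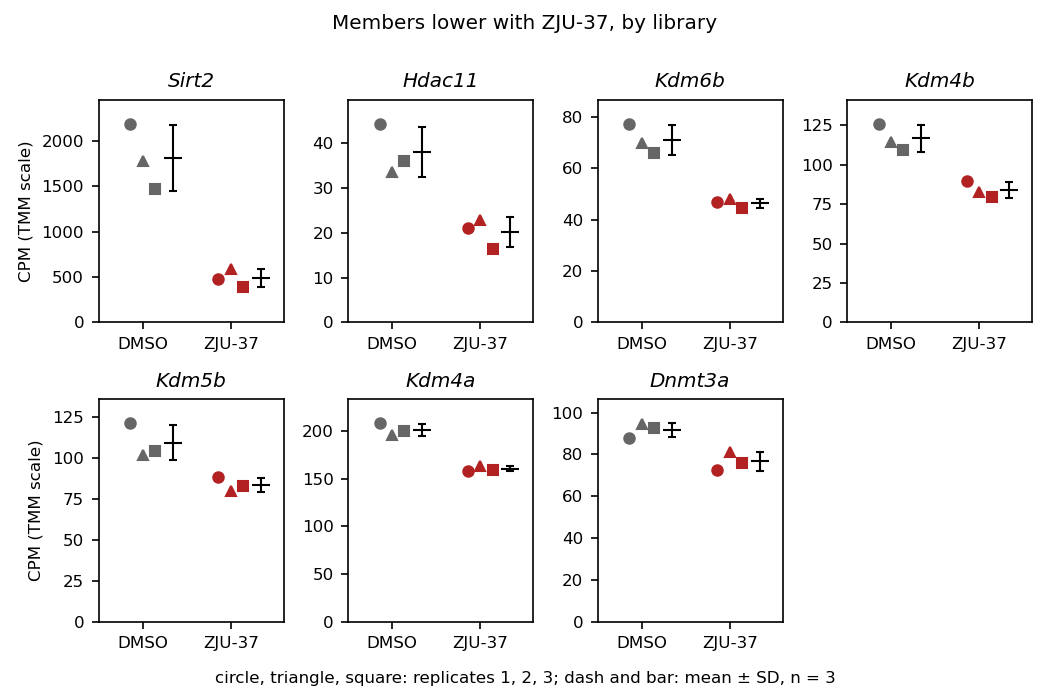
CPM in each library (TMM scale, axes from 0) of the 7 members called lower with ZJU-37; black dashes and bars give the mean and SD of 3 libraries. The 3 ZJU-37 libraries lie below the 3 DMSO libraries in each panel, and the gap is widest for Sirt2.

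The histone demethylases were the largest family, with 17 of 18 members tested, and 15 of the 17 had a log2 fold change below 0, as did 54.0% of all tested genes. Kdm6b, a demethylase that removes the mark PRC2 writes, had 77.4, 69.8 and 66.0 CPM in DMSO and 47.0, 47.9 and 44.5 CPM in ZJU-37, a log2 fold change of -0.61 (standard error 0.08, edgeR adjusted p = 0.00288). The related Kdm6a had 39.2, 37.1 and 35.8 CPM in DMSO and 31.0, 32.6 and 29.9 CPM in ZJU-37, which did not overlap, but was not called (log2 fold change -0.26, edgeR adjusted p = 0.0524, and 0.0142 with the block). Ezh2 thus rose in the same libraries in which Kdm6b fell. Kdm4b, a demethylase of heterochromatin marks, had 126, 115 and 110 CPM in DMSO and 89.5, 82.8 and 79.5 CPM in ZJU-37, a log2 fold change of -0.48 (standard error 0.08, edgeR adjusted p = 0.00797). Its relative Kdm4a had 208, 196 and 199 CPM in DMSO and 158, 163 and 159 CPM in ZJU-37, a log2 fold change of -0.33 (standard error 0.06, edgeR adjusted p = 0.00898, and 0.052 without ZJU-37 replicate 3). Kdm4c, the remaining tested relative, was not called, and Kdm4d had 0 counts in every library. Kdm5b, which removes the active promoter mark, had 121, 102 and 104 CPM in DMSO and 88.1, 79.6 and 83.0 CPM in ZJU-37, a log2 fold change of -0.39 (standard error 0.08, edgeR adjusted p = 0.0249). That call was lost without DMSO replicate 3, ZJU-37 replicate 2 or ZJU-37 replicate 3, with adjusted p-values from 0.0538 to 0.0977.

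Kdm2b and Kdm1a were the demethylase genes that rose. Kdm2b, whose product binds unmethylated CpG islands and brings a Polycomb complex there, had 65.9, 63.0 and 66.6 CPM in DMSO and 87.2, 79.7 and 80.1 CPM in ZJU-37, a log2 fold change of 0.34 (standard error 0.06, edgeR adjusted p = 0.0133, and 0.0626 without DMSO replicate 2). Kdm1a, also called LSD1 and found in corepressor complexes with Hdac1 and Hdac2, had 91.6, 87.2 and 88.7 CPM in DMSO and 113, 101 and 105 CPM in ZJU-37, a log2 fold change of 0.25 (standard error 0.06, edgeR adjusted p = 0.0416). In both genes the groups did not overlap. The call on Kdm1a was lost in 4 of the 6 fits that left out 1 library (DMSO replicates 1, 2 and 3 and ZJU-37 replicate 3, adjusted p 0.0761 to 0.142). The 11 uncalled demethylases had log2 fold changes from -0.38 to -0.02, and Kdm3a, Kdm6a and Kdm7a among them were called lower with the block.

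Across all 51 tested members, the groups did not overlap in 10 that were higher and 14 that were lower with ZJU-37, against 19.0% and 16.2% of all tested genes. By level per length, Sirt2 was the most abundant member in both groups, with 835 ± 165 FPKM in DMSO and 224 ± 44.4 FPKM in ZJU-37 (SD, n = 3 libraries each). Hdac2 came next, with 77.1 ± 4.85 FPKM in DMSO and 76.0 ± 4.28 FPKM in ZJU-37. Dnmt1 stood in place 9 in DMSO with 28.3 ± 1.09 FPKM and in place 3 in ZJU-37 with 59.8 ± 5.10 FPKM, where its spread overlapped that of Hdac1 at 54.5 ± 2.06 FPKM. Uhrf1 moved from place 20, at 20.8 ± 0.962 FPKM, to place 6, at 50.8 ± 5.23 FPKM. Ezh2 moved from place 16, at 22.2 ± 1.51 FPKM, to place 7, at 38.6 ± 4.02 FPKM.

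**Figure D5:**
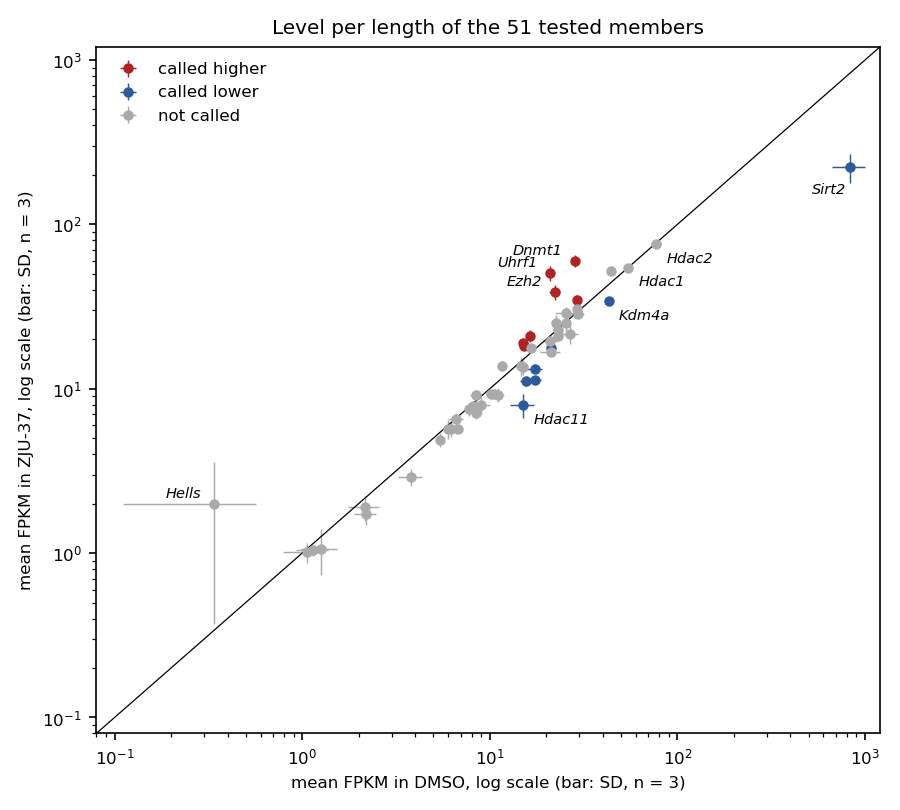
Mean FPKM of the 51 tested members in DMSO (x axis) and ZJU-37 (y axis), both on log scales, with bars for the SD of 3 libraries and a line of equal level. Sirt2 is highest in both groups and far below the line, whereas Dnmt1, Uhrf1 and Ezh2 lie above it and Hdac1 and Hdac2 on it.

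The rises of Dnmt1, Uhrf1 and Ezh2 went together with those of markers of dividing cells, of which 10 of 10 were called higher, with a median log2 fold change of 1.28. Mki67 had 162, 170 and 155 CPM in DMSO and 462, 358 and 396 CPM in ZJU-37, a log2 fold change of 1.32 (edgeR adjusted p = 0.000521). Mcm2, a subunit of the replicative helicase, had a log2 fold change of 1.04 (edgeR adjusted p = 0.000705) and Pcna, the sliding clamp that also binds DNMT1, one of 0.81 (edgeR adjusted p = 0.00132). The part of the dividing cells in these rises was not tested.

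Other genes of the same machinery, from 8 lists with 120 genes in the table, gave 16 higher and 6 lower among 118 tested, shares of 13.6% and 5.08% against 9.43% and 5.58% of all tested genes. With the block these counts were 27 and 17, shares of 22.9% and 14.4% against 16.2% and 15.9%. The median log2 fold change was 0.06. When 1 library was left out, the calls ran from 6 to 14 higher and from 2 to 6 lower. Among 24 tested PRC2 partners and PRC1 genes, 6 were higher and 2 lower. Phf19, a PRC2 partner, had 15.6, 15.3 and 15.1 CPM in DMSO and 43.4, 35.1 and 39.8 CPM in ZJU-37, a log2 fold change of 1.36 (standard error 0.10, edgeR adjusted p = 0.000415). It was joined by Cbx2 (log2 fold change 0.78, edgeR adjusted p = 0.0078) and Pcgf5 (0.53, edgeR adjusted p = 0.0216) of PRC1. The histone chaperones Rbbp4 and Rbbp7, which are also PRC2 subunits, were called higher with log2 fold changes of 0.23 and 0.25 (edgeR adjusted p = 0.0388 and 0.0289). Leaving out 1 library ended the call on Rbbp4 in all 6 fits (edgeR adjusted p up to 0.132), that on Rbbp7 in each fit but the one without ZJU-37 replicate 1 (up to 0.117), and that on Pcgf5 without DMSO replicate 2 or 3 or ZJU-37 replicate 2 or 3 (up to 0.0855).

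Of 11 heterochromatin genes, 3 were higher and 0 lower, against 9.43% and 5.58% of all tested genes. Suv39h1, listed as Suv39h1l1, writes the heterochromatin methyl mark and had a log2 fold change of 0.71 (edgeR adjusted p = 0.00173), and Cbx5 and Cbx3, which bind that mark, had log2 fold changes of 0.64 and 0.38. Without DMSO replicate 2 the edgeR adjusted p was 0.0502 for Cbx5 and 0.0549 for Cbx3, whose call was also lost without DMSO replicate 3. Of 12 histone acetyltransferases, 1 was higher. This was Hat1, which acetylates newly made histones, with a log2 fold change of 0.74 (edgeR adjusted p = 0.000521). Among 17 other SET domain and Dot1l methyltransferases, Nsd2 was higher (log2 fold change 0.62, edgeR adjusted p = 0.00208) and Setd3 lower (-0.41, edgeR adjusted p = 0.0127, and up to 0.0621 without DMSO replicate 2, ZJU-37 replicate 2 or ZJU-37 replicate 3). Of 10 COMPASS core genes and partners, which work with the KMT2 enzymes, Wdr5, Dpy30 and Paxip1 were higher, with log2 fold changes of 0.40, 0.39 and 0.29 (edgeR adjusted p = 0.0465, 0.022 and 0.0276), and 0 were lower. The call on Wdr5 was lost without DMSO replicate 2 or 3 or ZJU-37 replicate 3 (edgeR adjusted p up to 0.151), that on Dpy30 without DMSO replicate 1 or 2 or ZJU-37 replicate 3 (up to 0.0839), and that on Paxip1 in each fit but the one without ZJU-37 replicate 1 (up to 0.0974).

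Among 12 readers and repair genes of methylated DNA, Gadd45g was higher (log2 fold change 0.96, edgeR adjusted p = 0.00424) and Gadd45a lower (-0.85, edgeR adjusted p = 0.0122, and up to 0.0515 without DMSO replicate 2 or ZJU-37 replicate 3). Of 9 protein arginine methyltransferases, Prmt5 was higher (log2 fold change 0.28, edgeR adjusted p = 0.0142, and up to 0.0658 without DMSO replicate 2 or ZJU-37 replicate 3) and Prmt8 lower (-1.21, edgeR adjusted p = 0.00875).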

How the data were processed

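Poly-A RNA of 6 libraries was sequenced. The raw counts per gene were made by the authors with featureCounts (1.5.0 in their processing notes, which also name HISAT2 2.0.5 and StringTie 1.3.3b) and deposited neither normalized nor filtered. The genome build is not given in the sources used here. The FPKM values were deposited by the authors from the same counts and the gene length. The 5 columns of the authors' own comparison (group means, fold changes and p-values) were not used.

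Counts were filtered with filterByExpr, scaled by TMM and tested by the robust quasi-likelihood F-test of edgeR 4.0.16 (R 4.3.3) over all 14670 genes that passed, with Benjamini-Hochberg adjustment. Strand use in counting is not stated, so overlapping genes are uncertain. Standard errors came from the fold change and its F statistic, and 95% intervals from these with 4 residual degrees of freedom. The alternatives were DESeq2 1.42.0, limma-voom and limma 3.58.1 on log2(FPKM + 1), other scalings and filters, thinning, the replicate block and leaving out each library. Same-numbered libraries deviated together (r = 0.455, 0.353 and 0.368, other combinations from -0.313 to -0.000251, across genes), so the numbers in the labels were taken as pairs in the fit with the replicate block. The main fit had no block, as the study's methods state none, so its calls, standard errors and intervals leave this pairing out. With the block 24 members were called, against 14 in the main fit. No libraries agreed within sampling noise.

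The members and lists were chosen with earlier results of these data known. Values in every library are given for called members and for 18 members named whatever their result, and up to 3 called genes of each further list are named by size, and Kmt2a, Hdac5, Kdm6a, Rbbp4, Rbbp7, the markers with values and the rows described as sirtuin 1 and histone deacetylase 6 were added after their values were seen. Kat2b and Suv39h1 were matched by synonym, and Ep300, Smyd3 and Ezhip were not matched. The result of a further list, of corepressor complexes, is counted in the total over the 8 lists and is not reported here on its own.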

Additional observations from a re-analysis of the deposited data

How the results depend on the processing

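The 14 called members kept their direction in every alternative run, and 7 of them (Dnmt1, Uhrf1, Ezh2, Sirt2, Hdac11, Kdm4b and Kdm6b) also stayed past the threshold in every fit. The other 7 lost the call in at least 1 fit without a library. With other settings the call was lost for Dnmt3a (adjusted p 0.0503 to 0.0714, by library size only, without the filter and by limma on FPKM), Eed (0.0579 and 0.0643, without the filter and when thinned) and Kdm1a (0.0532 to 0.0871, by the other size factors, library size only and limma on FPKM). The count of members called higher ran from 3 to 7 and that of members called lower from 4 to 6 when 1 library was left out, and the other chromatin genes ran from 6 to 14 higher and from 2 to 6 lower. With the replicate block, the counts became 14 members lower, 27 other chromatin genes higher and 17 lower, and it changed the call of no named gene beyond those given beside their values. The number of genes called over the whole table was 4705 with the block and 2201 without it, and ran from 1306 to 1927 without 1 library. The median log2 fold change of the members was -0.051 by library size only and ran from -0.12 to -0.047 without 1 library. The sign turned for uncalled genes near 0: Dnmt3b (0.062 when thinned, -0.24 to 0.12 without 1 library), Hdac1 (-0.00041 when thinned) and Hdac2 (0.012 by library size only, -0.048 to 0.036 without 1 library). By library size only, the median over all tested genes also moved, from -0.027 to 0.0029. The 3 ratios kept their direction in all alternatives. The cause of these differences was not tested. Members under about 5 CPM in every library, such as Dnmt3b and Sirt4, rest on few counts. Hells had few counts in DMSO and spread from 17 to 165 counts between the ZJU-37 libraries.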
